A study of Mus musculus with 2 samples.

Results

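The genes described here are 10 protein-coding genes of the transforming growth factor beta (TGF-beta) pathway, chosen by name and located in the NCBIM37 (mm9) mouse annotation, out of 22350 protein-coding genes on the 19 autosomes and X. They are the ligands Tgfb1, Tgfb2 and Tgfb3, the receptors Tgfbr1 and Tgfbr2, the intracellular mediators Smad2, Smad3, Smad4 and Smad7, and Thbs1, which encodes the matrix protein thrombospondin-1. All 10 symbols were found. The genes were chosen with earlier results of these data known, so their shares beside those of all genes are descriptions only. Smad7, Thbs1, Tgfb3, Smad3 and Tgfbr2 had more anti-FLAG than control IgG tags near their transcription start sites (TSSs). The anti-FLAG antibody is directed against the FLAG tag of cyclin D1. There were 22 to 36 tags against 3 to 8, with scaled ratios of 3.39 to 9.39. Scaled counts are shares of the sequenced tags of a library, not amounts of chromatin. At Tgfb2 and Smad2 the difference did not pass the test, and Tgfb1, Tgfbr1 and Smad4 had too few tags to be tested. With the GC content of the whole promoter window allowed for, 0 of the 7 tested genes passed the test. The corrected ratios of Tgfb1, Smad2 and Smad4 were then 0.608, 0.692 and 0.558. All 10 promoters lay in GC-rich DNA, where the correction can only lower a ratio.

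TGF-beta ligands are secreted in a latent form and, once released, bring a type II receptor and a type I receptor together on the cell surface. The type I receptor phosphorylates the receptor-regulated SMADs, which bind the common SMAD and enter the nucleus to act on target genes, while an inhibitory SMAD limits the signal. In fibroblasts the pathway is known for driving the production of extracellular matrix, and thrombospondin-1 is one of the proteins that can release the ligand from latency.

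Both libraries came from chromatin immunoprecipitation followed by sequencing (ChIP-seq) of the same kind of cells, 3T3 fibroblasts of mouse embryos that lack cyclin D1 (Ccnd1-/-) and were given FLAG-tagged cyclin D1 with the retroviral vector MSCV-FLAG/Cyclin D1. Cyclin D1 is the regulatory partner of the kinases CDK4 and CDK6, and chromatin-bound cyclin D1 has been described as well. The anti-FLAG library was precipitated with the mouse M2 antibody and the IgG library with normal mouse IgG1, and the cells of neither received a treatment. The tagged protein is thus made from a vector and not from its own locus, and cells that never received the vector were not analysed here. The question put by the comparison is which stretches of DNA came down with tagged cyclin D1 more than with the control antibody.

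The anti-FLAG library held 9255188 tags on the autosomes and X and the IgG library 9308877, so that IgG counts were scaled by 0.994. There was 1 library per antibody and no replicate check, so each test compares these 2 libraries by counting error, not the antibodies in general, and all intervals are 95% intervals that cover counting error only. The label of a fibroblast could not be checked, because tags do not measure RNA. As a check of the genotype, introns 1 to 3 of Ccnd1 (4955 bp) held 1 anti-FLAG and 0 IgG tags, where 17.4 and 17.5 were expected from the genome-wide means. Far from genes the 2 libraries covered GC-rich DNA unequally. In 500-bp windows over 10 kb from every TSS, the scaled anti-FLAG to IgG ratio was 0.677 at 24 to 26% GC, 0.953 at 40 to 42% and 2.23 at 60 to 62%.

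Within 1 kb of the TSS, the 10 genes together collected 216 tags with anti-FLAG and 66 with IgG, a scaled ratio of 3.29 (2.49 to 4.41). Over all 22350 protein-coding genes the same ratio was 1.69. A promoter was tested where both libraries together gave it at least 20 tags. The 2-sided exact conditional binomial test was used, and p-values were corrected by the Benjamini-Hochberg method over all 10947 such promoters. Of the 10 genes, 7 could be tested and 5 were higher in the anti-FLAG library at an adjusted p under 0.05, while 0 were lower. Over all tested promoters 29.7% were higher and 0.0913% lower, so that a promoter with more anti-FLAG than IgG tags was common in these libraries. At least 2-fold higher, on the log2 ratio with 1 tag added to each count, were 6 of the 7 tested genes, against 44.3% of tested promoters, and 7 of all 10 genes, against 33.3% of all protein-coding genes. The median of this log2 ratio was 1.69 over the 10 genes and 0.59 over all protein-coding genes. The median GC content of the promoters was 62.5% for the 10 genes and 51.1% for all genes.

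**Figure D1:**
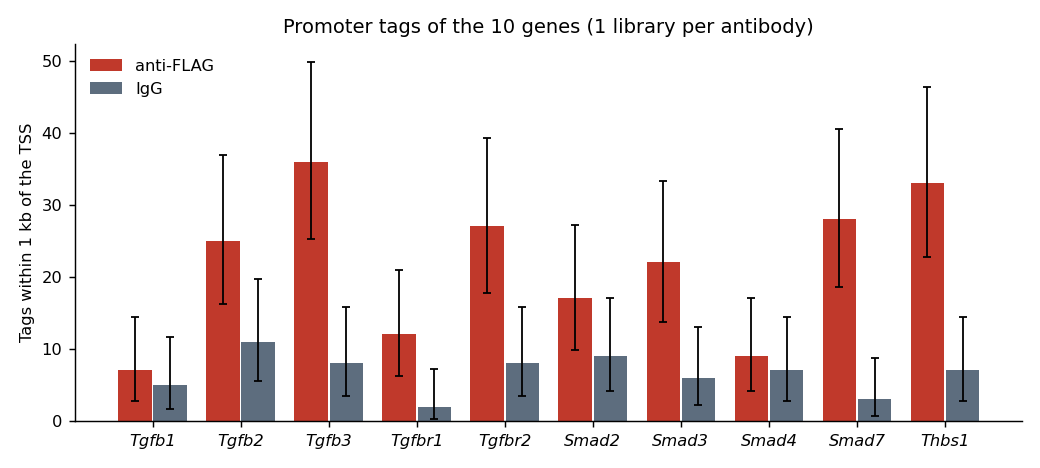
Tags within 1 kb of the TSS of each gene in the anti-FLAG library (red) and the IgG library (grey), with exact 95% Poisson intervals as bars. The intervals of the pair do not overlap at Tgfb3, Tgfbr2, Smad3, Smad7 and Thbs1, where the anti-FLAG library had 22 to 36 tags and the IgG library 3 to 8.

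Tgfb3 had the strongest excess of the 3 ligand genes, and Tgfb1 had few tags in either library. Tgfb3 (ENSMUSG00000021253.6, chr12:87397694-87419991, minus strand) had 36 anti-FLAG and 8 IgG tags over its promoter window. The densest bin of the locus was at the start itself, where the first 500 bp of the gene held 15 anti-FLAG and 2 IgG tags. A second dense bin, 3.5 to 3 kb upstream with 13 anti-FLAG and 6 IgG tags, adjoins the start of the divergent gene 1700019E19Rik, 3522 bp from the Tgfb3 TSS. The promoter ratio was 4.53 (2.07 to 11.3), and the gene passed the exact test with an adjusted p of 0.000686. With the GC correction described further on, its log2 ratio fell to 1.51, against 2.05 before it, and the adjusted p of the exact test was 0.0864. The 200 bases before its start are shown because this promoter held the largest number of anti-FLAG tags of the 10. They are given in the direction of transcription, NCBIM37 chr12:87419992-87420191, minus strand, with a CRE-like match (TGACGT on the other strand) and a TATA box (TATAAA) in capitals.
Tgfb3: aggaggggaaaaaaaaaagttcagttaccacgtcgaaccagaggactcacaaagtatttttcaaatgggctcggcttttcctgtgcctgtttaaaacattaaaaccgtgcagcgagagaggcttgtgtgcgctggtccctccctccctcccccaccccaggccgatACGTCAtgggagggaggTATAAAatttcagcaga

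Tgfb2 (ENSMUSG00000039239.8, chr1:188447065-188529871, minus strand) had 25 anti-FLAG and 11 IgG tags at its promoter. The anti-FLAG tags stood furthest above IgG on the downstream side of the start, with 7 against 1 and 8 against 0 tags in the first and second 500 bp of the gene, while the bin from 1000 to 500 bp upstream held 5 against 7. The ratio was 2.29 (1.08 to 5.15) and the adjusted p of the exact test was 0.0594, short of the threshold. The densest anti-FLAG signal of the locus lay inside the gene, in the first intron. The bin from 2500 to 2999 bp downstream of the TSS held 17 anti-FLAG and 3 IgG tags, and the next one 16 and 4. The central 300 bases of this intronic site, which alone had 12 anti-FLAG and 2 IgG tags, are shown because the site holds the densest 500-bp bin of all 10 loci. They run from 2847 to 3146 bp past the TSS, from the densest bin into the next one. The stretch, chosen after its values were seen, is NCBIM37 chr1:188526725-188527024, minus strand, and capitals mark the 1 match to the SMAD box CAGAC, here on the other strand. That match lies 3041 bp past the TSS, outside the densest bin.
Tgfb2 intron 1: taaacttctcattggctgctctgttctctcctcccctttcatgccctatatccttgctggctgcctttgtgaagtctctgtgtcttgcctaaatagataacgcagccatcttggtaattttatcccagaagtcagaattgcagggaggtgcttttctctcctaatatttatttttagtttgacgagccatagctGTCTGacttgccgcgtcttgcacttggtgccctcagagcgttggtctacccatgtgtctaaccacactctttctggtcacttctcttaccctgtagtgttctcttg

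Tgfb1 (ENSMUSG00000002603.9, chr7:26472021-26490096, plus strand) encodes the founding member of the ligand family. Its promoter had 7 anti-FLAG and 5 IgG tags, a ratio of 1.41 (0.385 to 5.63), and was under the minimum for the test. With a minimum of 10 tags it was tested and did not pass the exact test (adjusted p = 0.765). The DNA was 63.9% GC, and its 32-base words were all unique in the genome, so tags could have been placed on it. Within 20 kb its densest bin lay 10.5 to 10 kb upstream, with 9 anti-FLAG and 3 IgG tags. That bin lies between the starts of the neighbouring genes B9d2 and Tmem91, which are 5844 and 11836 bp upstream of the Tgfb1 TSS.

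Of the receptor genes, Tgfbr2 passed the test and Tgfbr1 could not be tested. Tgfbr2 (ENSMUSG00000032440.5, chr9:115993415-116084383, minus strand), the type II receptor that binds the ligand first, had 27 anti-FLAG and 8 IgG tags at its promoter. The tags were concentrated just upstream of the start, where the 500-bp bin held 12 anti-FLAG tags and 1 IgG tag. The ratio was 3.39 (1.50 to 8.65), with an adjusted p of 0.00960 in the exact test. After the GC correction the log2 ratio was 0.84, against 1.65 before it, and the adjusted p of the exact test was 0.474. RefSeq places the first base of a Tgfbr2 transcript 98 bp further upstream, and the window around that base held 26 anti-FLAG and 11 IgG tags, a ratio of 2.38 (1.14 to 5.33). The 102 bases upstream of the RefSeq start, within the densest bin, are shown for the one receptor gene that passed. They lie at NCBIM37 chr9:116084482-116084583, minus strand, and hold none of the 6 motifs searched, so there are no capitals.
Tgfbr2: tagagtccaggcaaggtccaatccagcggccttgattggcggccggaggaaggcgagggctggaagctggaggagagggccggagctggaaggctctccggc

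Tgfbr1 (ENSMUSG00000007613.9, chr4:47366094-47427803, plus strand), the type I receptor kinase that phosphorylates SMADs, had 12 anti-FLAG and 2 IgG tags. The ratio of 6.03 was the second largest of the 10 but had an interval of 1.34 to 55.5, and with 14 tags in all the promoter stayed under the minimum for the test. Between 500 bp upstream and 500 bp downstream of the start, where GC reached 78.6%, there were 3 anti-FLAG and 0 IgG tags. A second RefSeq start, 32994 bp into the gene, had 3 anti-FLAG and 7 IgG tags around it, a log2 ratio of -0.99, so the excess of tags was seen at the first start and not at this one. The densest bin within 20 kb lay 7.5 to 7 kb upstream, with 12 anti-FLAG and 6 IgG tags.

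Among the SMAD genes, the inhibitory Smad7 had the largest ratio of the 10 genes, the receptor-regulated Smad3 passed the test, the receptor-regulated Smad2 did not, and the common mediator Smad4 was not tested. Their intervals overlapped, and differences between the genes were not tested. Smad3 (ENSMUSG00000032402.6, chr9:63494574-63605801, minus strand) had 22 anti-FLAG and 6 IgG tags at its promoter. Of the IgG tags, 5 lay in the bin 1000 to 500 bp upstream. The ratio was 3.69 (1.45 to 11.1), with an adjusted p of 0.0143 in the exact test. No 500-bp bin within 20 kb reached 10 anti-FLAG tags. The GC correction left a log2 ratio of 0.51, against 1.72 before it, with an adjusted p of 0.778 in the exact test. The 200 bases before the start, NCBIM37 chr9:63605802-63606001, minus strand, are shown as an example of a GC-rich promoter that passed, with an Sp1 GC box (GGGCGG) in capitals.
Smad3: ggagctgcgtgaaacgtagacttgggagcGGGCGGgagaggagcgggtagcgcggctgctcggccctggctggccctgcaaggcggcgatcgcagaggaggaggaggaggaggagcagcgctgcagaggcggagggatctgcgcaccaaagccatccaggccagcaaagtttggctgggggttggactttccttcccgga

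Smad2 (ENSMUSG00000024563.9, chr18:76401234-76465385, plus strand) encodes a mediator that acts at the same step as Smad3. Its promoter held 17 anti-FLAG and 9 IgG tags, a ratio of 1.90 (0.801 to 4.84), and did not pass the exact test (adjusted p = 0.213). Of its 17 anti-FLAG tags, 14 lay in the single bin from 1000 to 500 bp upstream, where IgG had 2 and the DNA was 45.2% GC. Each of the other 3 bins held 1 anti-FLAG tag, against 3, 1 and 3 IgG tags, and their GC content was 70.4%, 82% and 70.0%. The direction at Smad2 therefore turned with the width of the window, to a log2 ratio of -0.73 within 500 bp of the TSS, against 0.86 within 1 kb. Smad4 (ENSMUSG00000024515.7, chr18:73798663-73863434, minus strand), the partner shared by the receptor-regulated SMADs, had 9 anti-FLAG and 7 IgG tags, a ratio of 1.29 (0.429 to 4.09), and was not tested. Its 2 bins from the start to 1000 bp downstream held 1 anti-FLAG and 1 IgG tag in all.

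Smad7 (ENSMUSG00000025880.5, chr18:75527183-75555589, plus strand), which competes for the type I receptor and recruits ubiquitin ligases to it, had 28 anti-FLAG and 3 IgG tags at its promoter. The ratio was 9.39 (2.90 to 48.3), and the adjusted p of the exact test was 0.000211. Its log2 ratio of 2.87 was above that of 99.4% of the tested promoters. The tags did not form a peak at the start but were spread, with 10, 6, 4 and 8 anti-FLAG tags in successive 500-bp bins from 1000 bp upstream to 1000 bp downstream, against 1, 0, 0 and 2 IgG tags. The 500 bp centred on the TSS, which were 75.4% GC, held 2 anti-FLAG and 0 IgG tags. A transcript on the opposite strand, RP24-263P17.1, starts 441 bp upstream, so its promoter lies in the same window and cannot be told apart from that of Smad7.

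Thbs1 (ENSMUSG00000040152.8, chr2:117937612-117952869, plus strand) was next to Tgfb3 in its values. Its promoter had 33 anti-FLAG and 7 IgG tags, a ratio of 4.74 (2.06 to 12.7), and passed the exact test with an adjusted p of 0.000979. The anti-FLAG tags stood in a pair of places, 14 between 1000 and 500 bp upstream and 10 in the first 500 bp of the gene, against 1 and 2 IgG tags. The upstream place coincides with the start of Gm13986, a long noncoding RNA on the opposite strand whose TSS lies 674 bp upstream of that of Thbs1. The 500 bp centred on the TSS held 9 anti-FLAG and 2 IgG tags. After the GC correction the log2 ratio was 1.56, against 2.10 before it, with an adjusted p of 0.0902 in the exact test.

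The 200 bases before the Thbs1 start, NCBIM37 chr2:117937412-117937611, plus strand, are shown because they separate the pair of dense places and held 1 anti-FLAG and 1 IgG tag. Capitals mark 4 Sp1 GC boxes (GGGCGG or, read on the other strand, CCGCCC), the last pair of which adjoin.
Thbs1: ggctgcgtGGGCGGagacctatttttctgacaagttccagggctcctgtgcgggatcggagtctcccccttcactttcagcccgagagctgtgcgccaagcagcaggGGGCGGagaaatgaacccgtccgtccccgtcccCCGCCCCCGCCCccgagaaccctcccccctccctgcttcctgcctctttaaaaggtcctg

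In the order of the ratios, Smad7 came first, then Tgfbr1, Thbs1, Tgfb3, Smad3, Tgfbr2, Tgfb2, Smad2, Tgfb1 and Smad4. The intervals of every pair of neighbours in this order overlapped. Those of Smad4 and Smad7, the last and the first, also overlapped, at 0.429 to 4.09 and 2.90 to 48.3. At the 5 genes that passed the test the anti-FLAG tags came from both DNA strands, 15 on the plus and 21 on the minus strand at Tgfb3 and 13 and 15 at Smad7.

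The ratio of distant windows was higher in GC-rich DNA, and the correction divided the ratio of each promoter by that of distant windows of the same GC. At the mean GC of the 2-kb promoter, the ratio used was 1.45 at Tgfb3 and Thbs1, 1.57 at Tgfb2 and 1.75 at Tgfbr2. It was 2.32 at Tgfb1, Smad3, Smad4 and Smad7, and 2.74 at Tgfbr1 and Smad2. The Smad2 promoter, at 66.9% GC, was richer than the distant windows with a ratio. The ratio of the richest of these, at 64 to 66% GC, was used for it. With these as the expectation, 0 of the 7 tested genes passed, against 1.11% of all tested promoters. The corrected ratio and its interval stayed above 1 at Tgfb3, with 3.13 (1.43 to 7.79), at Thbs1, with 3.28 (1.43 to 8.78), and at Smad7, with 4.05 (1.25 to 20.8), although none passed after adjustment. The median corrected log2 ratio was 0.84 over the 7 tested genes and 0.35 over all tested promoters.

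The GC content of these promoters changes steeply within the window, so the expectation was also summed over 500-bp pieces, a choice made after the data were seen. The expected ratio at Smad7 was then 1.58 and that at Thbs1 1.36. In this form Smad7 (adjusted p = 0.0316) and Thbs1 (adjusted p = 0.0427) passed the exact test, and Tgfb3 was just outside it at 0.0519. Over all tested promoters 3.43% passed. In the 500 bp centred on the TSS, 7 of the 10 genes had 70.5% to 77.6% GC, whereas distant windows gave ratios only up to 66% GC. The highest of these was used for all richer DNA, so that how the libraries differ at the cores of these promoters was not measured.

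**Figure D2:**
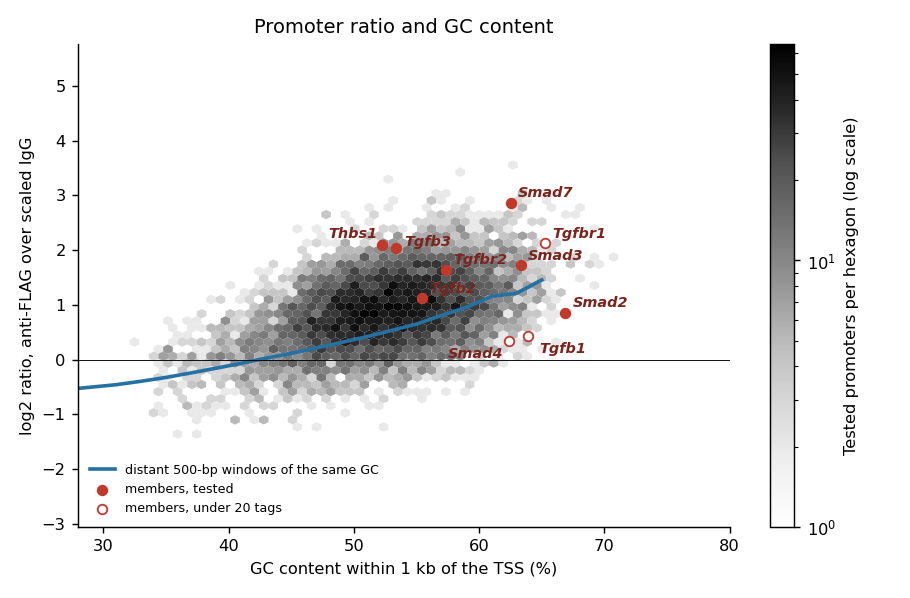
Log2 ratio of anti-FLAG over scaled IgG tags within 1 kb of the TSS against the GC content of the same window in percent. Grey hexagons count all 10947 tested promoters, filled red points are the 7 tested genes, open points the 3 with under 20 tags, and the blue line gives distant windows of the same GC. Smad7, Thbs1 and Tgfb3 lie well above the line, while Tgfb1 and Smad4 lie below it. Smad2, at 66.9% GC, lies past the GC-rich end of the line and lower than that end.

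Beyond the promoters, between 1 and 20 kb on either side, the 10 genes together had 2402 anti-FLAG and 1891 IgG tags, a ratio of 1.28 (1.20 to 1.36), where all protein-coding genes had 1.11. Before the GC correction, the excess at the promoters was thus larger than in the surroundings, which had an excess as well. With it, the promoter ratio was below the flank ratio at Tgfb1 (0.608 and 1.06), Smad2 (0.692 and 0.917) and Smad4 (0.558 and 0.886). At each of the other genes it stayed above. The flank correction used the GC of single 500-bp bins and the promoter correction that of the whole window. With the promoter expectation summed over 500-bp pieces, the log2 ratio (1 tag added) was 0.28 at Smad2, so the order turned there. It was -0.82 at Tgfb1 and -0.21 at Smad4. Smad7 had 318 anti-FLAG and 178 IgG tags in its flanks, a ratio of 1.80 (1.49 to 2.17) that was 1.47 (1.22 to 1.77) after the GC correction. Tgfb3 had 350 and 218 tags, a ratio of 1.61 (1.36 to 1.92), and 1.35 (1.14 to 1.61) after the correction. Thbs1 had 335 and 264 tags, a ratio of 1.28 (1.08 to 1.51), and 1.19 (1.01 to 1.40) after the correction. Around these 3 genes the anti-FLAG excess was thus not limited to the promoter. The flank ratios of Smad3, 1.39 (1.14 to 1.70), Tgfb1, 1.37 (1.07 to 1.78), and Tgfb2, 1.29 (1.08 to 1.55), were of like size. After the correction they were 1.17 (0.961 to 1.43), 1.06 (0.826 to 1.38) and 1.17 (0.972 to 1.40), with intervals that include 1. Tgfbr1 had a flank ratio of 1.15 (0.938 to 1.42), and 1.23 (1.00 to 1.52) after the correction, where the interval lies just above 1. The flanks of Smad2 and Smad4 had ratios of 0.879 (0.719 to 1.07) and 0.894 (0.704 to 1.13), with intervals that include 1. The flank ratio of Tgfbr2, 1.10 (0.900 to 1.35), also had an interval that includes 1.

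The bodies of the genes, from 1 kb past the TSS to the end, share tags with the downstream flanks. These flanks hold the whole bodies of Thbs1 and Tgfb1 and most of those of Tgfb3 and Smad7, so the bodies are not a separate measurement there. Smad7 had 296 anti-FLAG and 143 IgG tags over 27.4 kb, or 10.8 and 5.22 tags per kb, a ratio of 2.08 (1.70 to 2.56). Thbs1 had 11.7 and 7.43 tags per kb with a ratio of 1.58 (1.23 to 2.04), Tgfb3 8.87 and 5.31 with 1.68 (1.33 to 2.14), and Smad3 6.09 and 3.83 with 1.60 (1.41 to 1.81). After the GC correction these 4 bodies kept ratios with intervals above 1, from 1.26 (1.11 to 1.43) at Smad3 to 1.60 (1.31 to 1.97) at Smad7. The bodies of Tgfbr2, 1.27 (1.11 to 1.44), and Tgfb2, 1.15 (1.01 to 1.31), did not. Their corrected ratios were 1.11 (0.977 to 1.27) and 1.05 (0.925 to 1.20), with intervals that include 1. The body of Tgfb1 had a ratio of 1.32 (0.892 to 1.96), and 1.02 (0.688 to 1.51) after the correction. The body of Smad2 ran the other way, with 302 anti-FLAG and 370 IgG tags and a ratio of 0.821 (0.703 to 0.958), which was 0.886 (0.759 to 1.03) after the correction. Bodies of Tgfbr1 and Smad4 had ratios of 0.948 (0.802 to 1.12) and 1.02 (0.856 to 1.22). Over all protein-coding genes the ratio of the bodies was 1.03.

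**Figure D3:**
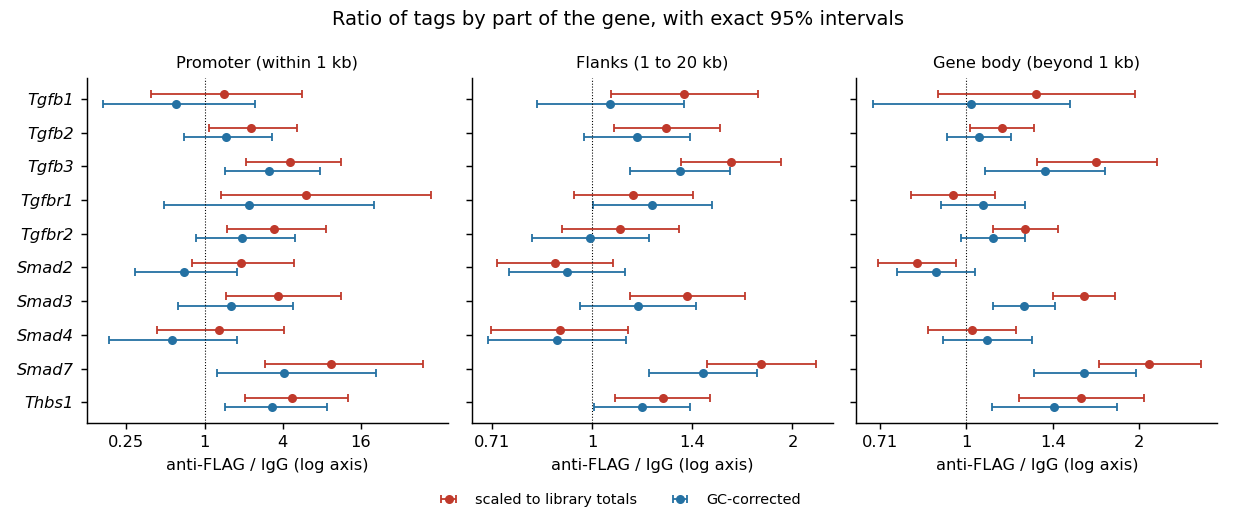
Ratio of anti-FLAG to IgG tags, on log axes, in the promoter, the flanks from 1 to 20 kb and the gene body of each gene. Red is scaled to library totals and blue is GC-corrected, with exact 95% intervals. The correction uses the mean GC of the whole window in the promoter, and that of single 500-bp bins in flanks and body. In all 3 parts Smad7, Tgfb3 and Thbs1 have intervals above 1 in both colours, and the corrected flank ratios of Smad7 and Tgfb3 are 1.47 and 1.35.

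Discrete anti-FLAG regions were merged from 500-bp windows in which 10 or more tags stood 2-fold or more over the local background, with an exact Poisson p (one-sided) under 1e-05. Of the 10 genes, 5 had such a region within 20 kb of the TSS, against 20.0% of all protein-coding genes, and 3 had one within 1 kb, against 6.98%. The region at Tgfb3 (chr12:87419501-87420250) was centred 116 bp inside the gene and reached 5.84-fold, with 18 anti-FLAG and 2 IgG tags in its best window (exact Poisson p = 5.38e-09). The region in intron 1 of Tgfb2 (chr1:188526501-188527250) was centred 2996 bp past the TSS. Its best window had 18 anti-FLAG and 4 IgG tags, 4.53-fold over background (exact Poisson p = 2.29e-07). Both were also called with the GC correction, under which 3 of the 10 genes kept a region within 20 kb, against 11.0% of all genes, and 1 within 1 kb, against 2.65%. The single regions at Thbs1, 612 bp upstream with 16 anti-FLAG tags and 1 IgG tag, and at Smad2, 734 bp upstream with 14 and 3, were not called with it.

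Smad7 had 3 regions and none of them at its promoter. They were centred 4183 bp upstream, with 18 anti-FLAG and 4 IgG tags, and in introns 8192 and 18817 bp downstream, with 16 and 14 anti-FLAG tags and 1 IgG tag each. These counts are those of the best window of each region. The first and the second were called with the GC correction too. Smad7 and Thbs1 each had 7 bins reaching 10 anti-FLAG tags among the 80 bins of 500 bp within 20 kb, Tgfb2 and Tgfb3 had 4, Tgfbr2 had 2, Tgfbr1 and Smad2 had 1, and Tgfb1, Smad3 and Smad4 had 0. In the IgG library 1 bin, 8.5 to 8 kb upstream of Thbs1, reached 10 tags among the 800 bins of the 10 genes.

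**Figure D4:**
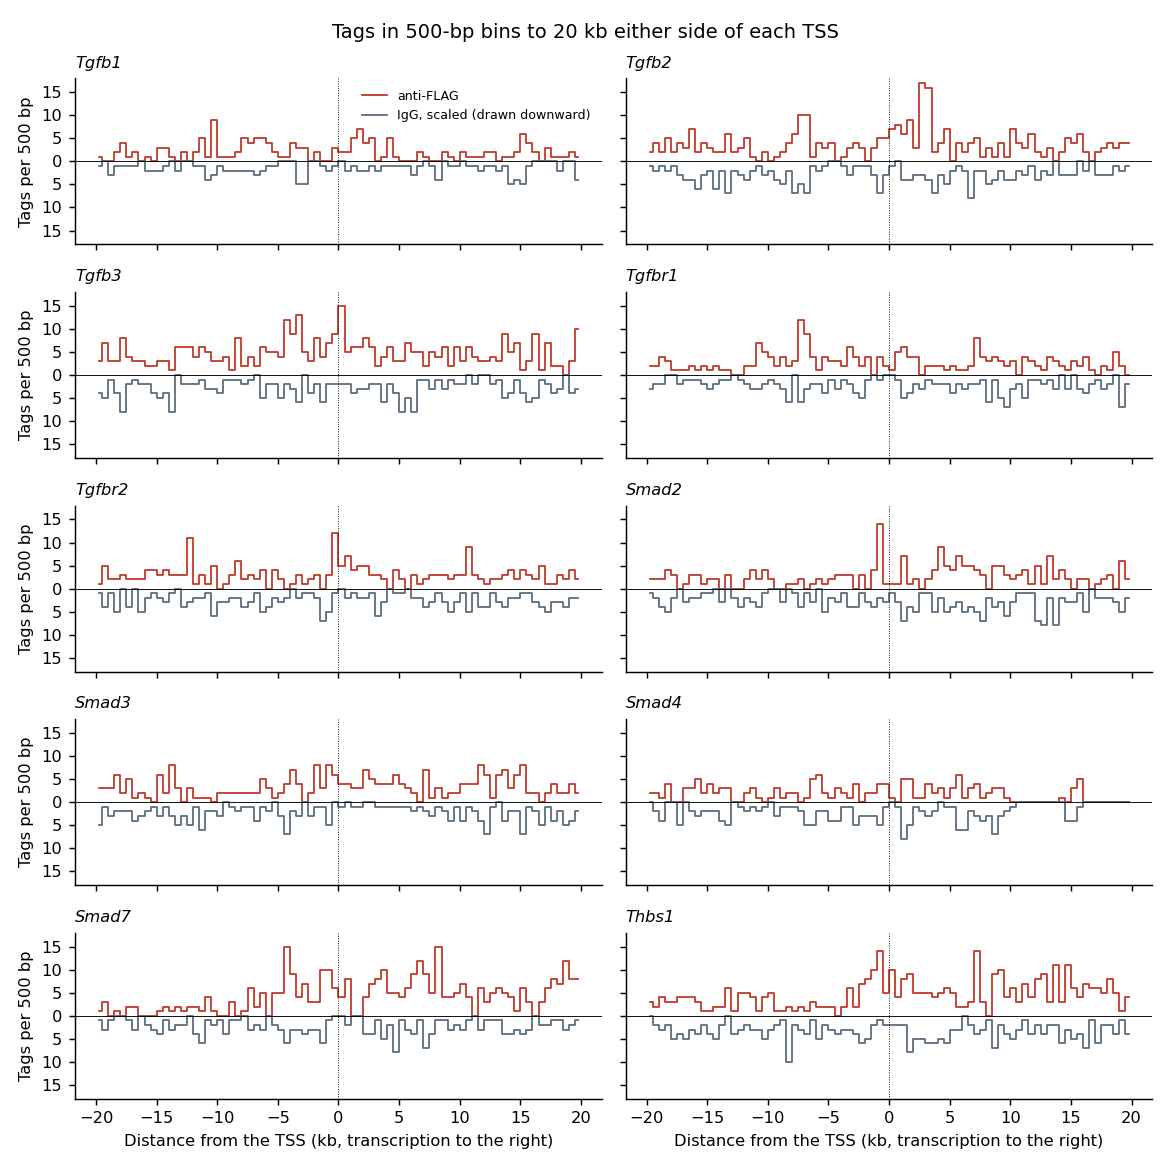
Tags per 500-bp bin against distance from the TSS in kb, with transcription to the right, for the 10 genes. Anti-FLAG tags are drawn upward in red and scaled IgG tags downward in grey. Narrow anti-FLAG peaks stand at the start of Tgfb3 (15 tags), in Tgfb2 (17 tags), upstream of Smad2 (14 tags) and on both sides of Smad7 (15 tags each), and the downstream end of the Smad4 panel is empty in both libraries.

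Parts of the Smad4 locus could not be read. Of its 80 bins, 17 were empty in both libraries, and in 15 of these less than 50% of 32-base words occurred once in the genome. Such bins give no measurement in either library. The promoters of all 10 genes were open to unique placement, with 85% to 100% of their words unique in each 500-bp bin.

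The promoters of the 10 genes did not share a single motif among the 6 searched on both strands from 250 bp before to 50 bp after the TSS. The Sp1 GC box GGGCGG had 18 matches in 7 of them, with 6 at Tgfb1 and 4 at Thbs1, and was present in 43.5% of all promoters. The SMAD box CAGAC was found in Tgfb2, Smad2 and Smad4, with 4 matches, and in 48.5% of all promoters. The E-box CACGTG was in Tgfb2 and Smad2 (7.79% of all promoters), and TATAAA in Tgfb2 and Tgfb3 (13.4%). TGACGT was in Tgfb3 (8.56%) and the AP-1 site TGANTCA in Tgfbr2 (6.93%). The latter lies 25 bp before the start of the gene record and downstream of the RefSeq start of Tgfbr2. In these 10 promoters no match overlapped another, and a match is a description of letters, not a binding site.

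The wider pathway was read in 106 further genes in 8 lists, whose promoters gave the same kind of values. These lists, too, were chosen with earlier results of these data known, so shares beside those of all genes are descriptions only. Of these, 64 could be tested, 34 were higher in the anti-FLAG library and 0 lower, against 29.7% higher over all tested promoters. Their median log2 ratio was 1.36 among those tested, where all tested promoters had 0.88. Their median GC content was 56.7%, and with the GC correction 2 of the 64 passed, against 1.11% of all tested promoters. Both, Acta2 and Col1a2, are in the list of known TGF-beta target genes, where 15 of 22 tested were higher. Acta2, which encodes smooth muscle actin of contractile fibroblasts, had 66 anti-FLAG and 22 IgG tags (exact test, adjusted p = 0.000180, and 0.00742 with the GC correction). Col1a2, a chain of type I collagen, had 37 and 8 tags (exact test, adjusted p = 0.000493, and 0.0451 with the correction). Of the 24 target genes 16 had an anti-FLAG region within 20 kb, against 20.0% of all protein-coding genes.

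The counts of the single lists are read against the 29.7% of all tested promoters that were higher. Among genes that keep the ligand latent or release it, 7 of 13 tested were higher (53.8%), such as Ltbp3 with 45 anti-FLAG and 15 IgG tags and Ltbp4 with 19 and 2, both latent TGF-beta binding proteins of the matrix (exact test, adjusted p = 0.00206 and 0.00228). Secreted and membrane antagonists gave 4 higher of 4 tested, with Dand5 (35 and 10 tags, a window shared with the start of Gadd45gip1) and the pseudoreceptor Bambi (19 and 5) at exact adjusted p of 0.00276 and 0.0206. Among the other SMADs, the inhibitory Smad6 had 23 anti-FLAG and 3 IgG tags, close to those of Smad7 (28 and 3), with an exact adjusted p of 0.00142. Smad1, which mediates signals of bone morphogenetic proteins, had 14 and 7 and did not pass the exact test (adjusted p = 0.228).

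In 3 lists the share of tested genes that were higher lay near the 29.7% of all tested promoters. Other receptors had 2 of 6 (33.3%), the bone morphogenetic protein receptors Bmpr1b (22 and 6 tags) and Bmpr2 (22 and 8), with exact adjusted p of 0.0143 and 0.0385. SMAD partners and regulators had 3 of 11 (27.3%), among them the ubiquitin ligase Trim33 (21 and 3 tags) and the deubiquitinase Usp15 (17 and 3), with exact adjusted p of 0.00276 and 0.0108. In the list of ligands of the wider family 1 of 4 was higher (25%), Gdf11 (18 and 3 tags, exact adjusted p = 0.00790), while Inhba had 25 and 15 and did not pass (exact adjusted p = 0.208). Of the other thrombospondins and their receptors, Cd47, a receptor of thrombospondin-1, was higher with 22 anti-FLAG and 8 IgG tags (exact adjusted p = 0.0385). Thbs3 had 19 and 7 tags and did not pass (exact adjusted p = 0.0583).

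**Figure D5:**
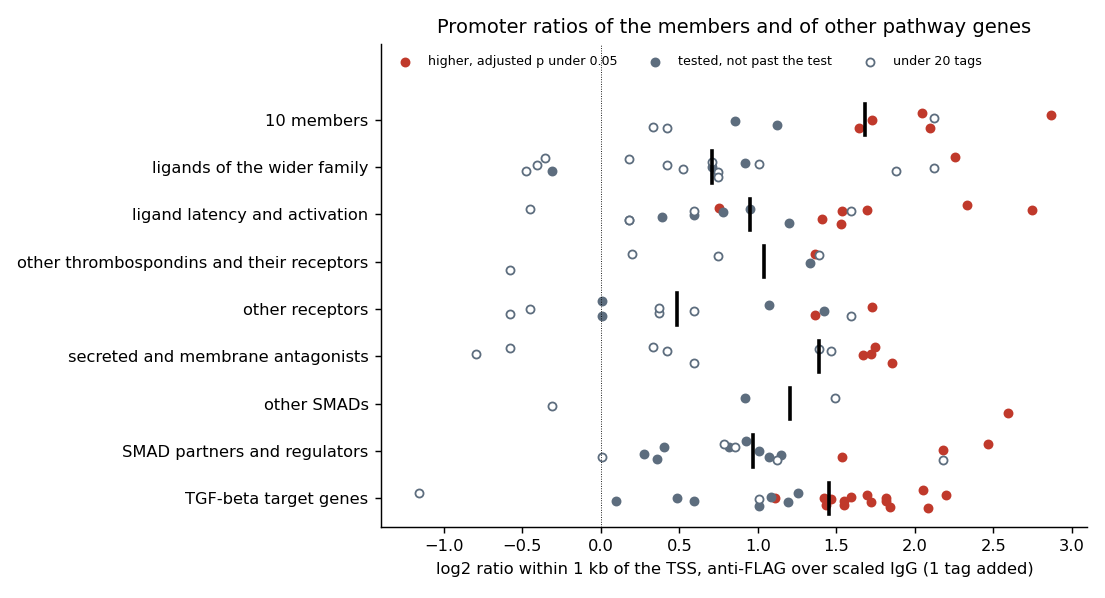
Log2 ratio of anti-FLAG over scaled IgG tags within 1 kb of the TSS, with 1 tag added to each count, for the 10 genes (top) and 8 lists of other pathway genes. Red points were higher at an adjusted p under 0.05, grey points were tested and did not pass, open points had under 20 tags, and black bars are list medians. The median of the 10 genes is 1.69 and that of the target genes 1.45.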

How the data were processed

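The deposited files give 1 line per mapped tag of 36 bp with its place and strand. Their deposited score is 512 in every line and carries no measurement. Within a library, 0 tags had the same place and strand as another. Formaldehyde-fixed chromatin was sheared by sonication, per the labels' protocols. The aligner was not given in the sources used here, nor was the build. Tag extents fitted NCBIM37, whose annotation was used, and RefSeq starts (from a table on GRCm38.p6) were matched to it by exact sequence in 5 genes.

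Tags were moved 76 bp downstream (anti-FLAG lag 152 bp, IgG lag 135 bp). The TSS was the 5' end of the gene record. Promoter tests and regions are as described above, with GC strata of 2 points. For flanks and bodies the GC expectation was the mean over 500-bp bins, weighted by their IgG tags. Ratio intervals are exact binomial intervals (95%). The promoter and region calls were run on simulated data. There the libraries did not differ by GC content, so that run does not bear on the GC difference seen here. All 10 genes are named, and from each list the 2 tested genes of smallest p. Genes and lists were chosen with earlier results of these data known. Software was Python 3.11.15, NumPy 2.4.6, SciPy 1.17.1, pandas 2.3.3 and Matplotlib 3.10.9. Alternatives changed scaling, GC, width, tag position, tag minimum, TSS, pseudocount, region threshold and flank.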

Additional observations from a re-analysis of the deposited data

How the results depend on the processing

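No paired analysis was possible because there was 1 library per antibody. Of the 10 genes, 5 were called higher, and 4 to 6 under the other scaling, the unmoved tags, the tag minimum of 10, the other TSS and the 2.5 kb window, in which Tgfbr2 did not pass the exact test (adjusted p = 0.0503). With the whole-window GC correction the count was 0, with the correction in 500-bp pieces, added after the data were seen, 2, and within 500 bp of the TSS 1, where 3013 promoters could be tested and Tgfbr2, Smad3, Smad7 and Thbs1 could not. Over all promoters 3246 of 10947 tested were higher, against 121 with the GC correction and 376 in pieces of the same 10947, 1880 of 3013 within 500 bp and 2131 of 20310 within 2.5 kb, so that the counts by width rest on different numbers tested. Those lower numbered 10, against 1, 3, 3 and 30 in the same order, and 21 at a tag minimum of 10. At least 2-fold higher were 4846, against 1596, 2420, 2234 and 2700. Of the other pathway genes 34 were higher, against 2, 4 and 12 within 500 bp. Genes with a region numbered 5, against 2 at p under 1e-07 and 3 with the GC correction. The flank ratio of 1.28 became 1.40 with the scaling by low bins and 1.16 with the GC correction. The log2 ratio changed sign with the GC correction at Tgfb1 (-0.79, and -0.82 in pieces), Smad2 (-0.60) and Smad4 (-0.88, and -0.21 in pieces), within 500 bp at Smad2 (-0.73), within 2.5 kb at Smad4 (-0.30) and at the second start of Tgfbr1 (-0.99). In 500-bp pieces Smad2 kept its sign, with a log2 ratio of 0.28. The low-bin scaling brought Tgfb2 past the exact test (adjusted p = 0.0343), as did the tag minimum of 10 for Tgfbr1 (adjusted p = 0.0455). The cause of these changes was not tested. Promoters of 7 to 36 anti-FLAG tags limit the precision, so a difference that did not pass may still be present.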
